A study of Populus x canadensis with 3 samples.

Results

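The lower dose of para-hydroxybenzoic acid (pHBA) was compared with no added pHBA in the roots of a hybrid poplar, by small RNA sequencing. The members are the distinct small RNA sequences of the deposited root table whose normalized reads averaged at least 10 over its 3 libraries. There were 289 such sequences, called tested here, among 472 distinct sequences in all. The PHBA 2 library came from roots of Populus × euramericana "Neva" that received pHBA at a labelled 2 mML-1 for 3 days. The PHBA 0 library came from roots of the same hybrid handled alike but at 0 mML-1. In both groups the plants were cuttings of about 20 cm from branches 1 year old, rooted in water culture, moved to dilute Hoagland nutrient solution and treated after 60 days. A further library at 4 mML-1, PHBA 4, entered the minimum mean and is given only side by side. The labels leave the dose unit unexplained, and millimolar is presumed. Equal parts of RNA from 1 treatment were mixed before the library was made, and the labels do not give the number of plants in a mix. Each dose is therefore 1 library, no difference has a replicate check, and no p-value is given. The labelled tissue is root, which was not checked against marker miRNAs.

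MicroRNAs (miRNAs) are cut as a duplex from a hairpin precursor by a Dicer-like enzyme. Usually 1 strand is loaded into an Argonaute protein and guides it to matching messenger RNAs, which are then cut or translated less, while the other strand is mostly degraded. In plants many targets are transcription factors of growth and development, so miRNAs bear on root branching, meristems and hormone responses. Other families act on immune receptors, copper proteins or the small RNA machinery itself. pHBA is a phenolic acid that roots and decaying litter release into soil, and it can slow the growth of neighbouring or following plants. The question put to these libraries was which root miRNAs stood at another level after pHBA.

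The sequences on which the comparison turns are given 5′ to 3′ as deposited, with T for U, and capitals mark the seed, bases 2 to 8. Names starting with ptc refer to Populus trichocarpa and others to the species whose registered miRNA matched best. In such tables L and R with a number usually mark bases added or missing at the left and right end, and ss marks substitutions. The first set holds the most abundant sequences, which act on genes of NBS-LRR immune receptors, and copper-responsive miRNAs.
ptc-miR472b: tTTTCCCAactccacccatccc
ptc-miR472a: tTTTCCCTactccacccatccc
ptc-miR1448_L+1R+1: tCTTTCCAacgcctcccatacc
ptc-miR482a.1_L+5: tCTTGCCTactcctcccattcc
ptc-miR1444a_R+1: tCCACATTcggtcaatgttcc
ptc-miR398b: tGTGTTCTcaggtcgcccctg
ptc-miR397a: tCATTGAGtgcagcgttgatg
ptc-miR408-3p: aTGCACTGcctcttccctggc
mtr-miR408-3p_L-1R+2: tGCACTGCctcttccctggctc

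The second set holds the phase change, growth and small RNA machinery miRNAs with large differences, including sequences of 1 family whose ends differ and whose seeds are thereby shifted. Last come sequences of the families doubted as miRNAs because they match fragments of longer RNAs.
ptc-miR156g: tTGACAGAagatagagagcac
ptc-miR156a: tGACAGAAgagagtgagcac
ptc-miR396a: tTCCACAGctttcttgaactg
ptc-miR396c: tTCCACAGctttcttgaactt
ptc-miR166a: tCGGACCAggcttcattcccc
ptc-miR166n_L+2R-2: tCTCGGACcaggcttcattcc
mtr-miR166a_L+1: aTCGGACCaggcttcattcccc
ptc-miR164a: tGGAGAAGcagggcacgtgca
ptc-miR171l-5p_1ss1TC: cGTGATATtggtccggctcatc
ptc-miR403c-5p: tTTGTGCGtggatctgaggcc
ptc-miR162a: tCGATAAAcctctgcatccag
gma-miR6300: gTCGTTGTagtatagtgg
gma-miR6300_R+4: gTCGTTGTagtatagtggtgag
ptc-miR6478_R+2_1ss21GA: cCGACCTTagctcagttggtaga

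Reads on the listed sequences, each counted once, came to 542913 in PHBA 2 and 1434442 in PHBA 0, so PHBA 2 values rest on fewer reads. After the authors' scaling the totals were 701992 in PHBA 2 and 715066 in PHBA 0, in normalized reads, the unit used below. Of the 472 sequences, 365 were above 0 in PHBA 2 and 421 in PHBA 0. The 289 tested ones held 99.9% of the normalized reads of either library, and 7 of them were listed at 0 in PHBA 2 and 6 in PHBA 0. Of the 183 untested sequences, 83 were above 0 in PHBA 2 and 138 in PHBA 0. Next to the minimum, gma-MIR5376-p3_2ss16GA19GC (mean 10.3) and ptc-MIR393c-p3 (10.4) were tested, while PC-5p-110259_36 (9.83) and ptc-MIR169s-p3 (9.81) were not. A sequence could pass through 1 library alone, as gma-MIR5376-p3_2ss16GA19GC did with 31.0 normalized reads in PHBA 2 and a listed 0 in the others. Other low sequences, on either side, reached the minimum only with the library where they were higher. The miR7841 sequence did so with 64.3 in PHBA 0, against 14.2 in PHBA 2 and 10.5 in PHBA 4. How many did so was not counted.

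Most abundant miRNAs stood close together in the libraries, and the sequences that differed at least 2-fold were mainly of low or middling abundance. A sequence was counted as different when log2 of (PHBA 2 + 1) over (PHBA 0 + 1), in normalized reads, was at least 1 in size. By this rule 75 of 289 sequences (26.0%) differed. Higher in PHBA 2 were 47 (16.3%) and lower were 28 (9.69%), with a median log2 fold change of -0.03 over all 289. This split rests on the doubted RNA fragments and on short sequences: without both, 18 were higher and 23 lower. Among sequences with a mean of 10 to 100, 25 were higher and 19 lower of 146. From 100 to 1000 the counts were 18 higher and 7 lower of 98, and from 1000 upwards 4 higher and 2 lower of 45. Intervals in brackets after a fold are exact 95% intervals for counting error, and they say nothing of the spread between plants. They did not include a ratio of 1 for 175 sequences (60.6%), and lay wholly beyond 2-fold for 33 (11.4%), 23 higher (7.96%) and 10 lower (3.46%). gma-MIR5376-p3_2ss16GA19GC is among the 47 and the 23, which its passing through PHBA 2 alone fixed in advance. The same holds for hbr-MIR6173-p5_2ss16CG17AG, which reached the minimum only with PHBA 2. It stood at 28.4 in PHBA 2, a listed 0 in PHBA 0 and 12 in PHBA 4. Among the 28 and the 10 is the miR7841 sequence, which reached the minimum only with PHBA 0. Less of a miRNA per cell and fewer cells that hold it cannot be told apart in pooled roots.

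**Figure D1:**
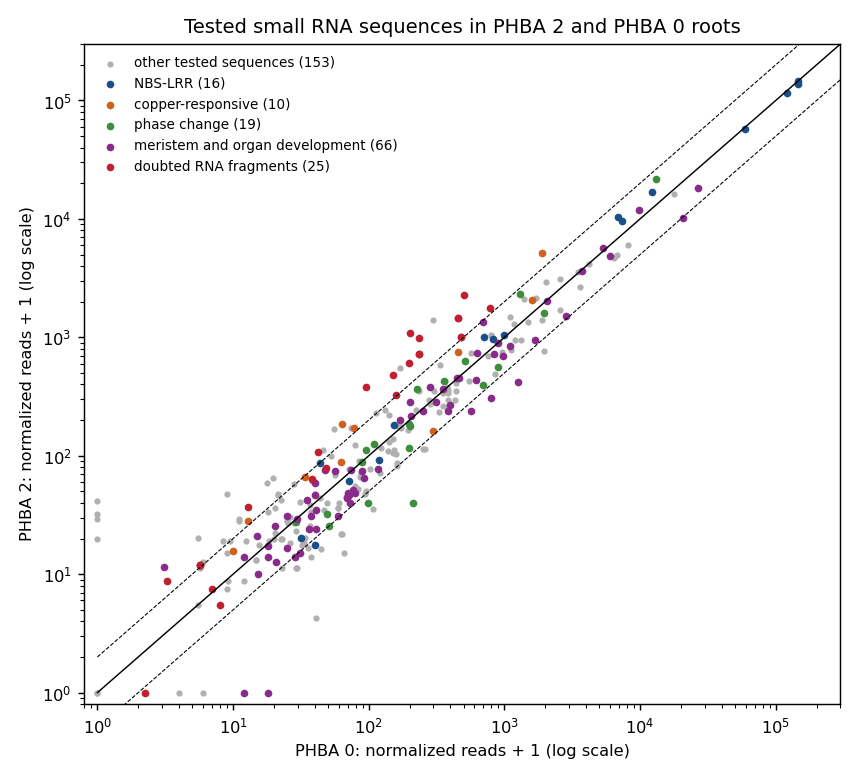
Normalized reads plus 1 of each of the 289 tested sequences in PHBA 2 (vertical axis) and PHBA 0 (horizontal axis), both on log scales, coloured by list; the solid line marks equal values and the dashed lines 2-fold differences. The most abundant sequences lie near the line of equal values, the orange copper-responsive and red doubted RNA fragments mostly above it, and the purple meristem and organ development sequences mostly below.

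miRNAs of the NBS-LRR list dominated both libraries and stood at nearly the same level. These families guide cleavage of messages for intracellular immune receptors, and those of 22 nt can trigger secondary siRNAs from them. Together they held 496018 normalized reads in PHBA 2, against 501368 in PHBA 0, which was 70.7% of all in PHBA 2 and 70.1% in PHBA 0. ptc-miR472b had 145370 normalized reads in PHBA 2, against 146076 in PHBA 0, and ptc-miR472a had 138076 in PHBA 2 against 145690 in PHBA 0. The pair differs by T8A, from ptc-miR472a to ptc-miR472b with positions counted from the 5′ end, which is the last base of the seed printed above. ptc-miR1448_L+1R+1 stood at 115371 in PHBA 2, against 120549 in PHBA 0, and ptc-miR482a.1_L+5 at 56943 in PHBA 2 against 59538 in PHBA 0. Of these 4 sequences none differed by more than 1.06-fold, and with equal library totals the log2 ratio of ptc-miR472b was 0.02 in place of -0.01.

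Less abundant members of the NBS-LRR list spread more widely. ptc-miR482d-3p had 10413 normalized reads in PHBA 2, against 6886 in PHBA 0, 1.51-fold higher (1.47 to 1.55). ptc-miR482c-3p stood at 16730 in PHBA 2, against 12288 in PHBA 0, 1.36-fold higher (1.33 to 1.39). Its sequence becomes that of ptc-miR1448_L+1R+1 through G8A, G10C and T11G, yet the abundant miR1448 sequence was not higher. Of the 16 tested members 0 were at least 2-fold higher, beside 16.3% of all tested sequences. Lower by this rule was 1 (6.25%, beside 9.69% of all), the rare mes-MIR482-p3_2ss10GA17TC at 16.8 in PHBA 2 and 38.9 in PHBA 0. ptc-miR482a.1_L+7R+1, 2.02-fold higher without a pseudocount, missed the count at a log2 fold change of 0.998 with it. The list median was 0.04, beside -0.03 over all tested sequences.

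In the copper-responsive list miR1444 and miR398 were higher in PHBA 2 and miR397 was lower. Their targets are copper proteins: polyphenol oxidases for miR1444, a family known from Populus, copper/zinc superoxide dismutases for miR398, laccases for miR397 and plantacyanin and laccases for miR408. Of the 10 tested members 4 were at least 2-fold higher (40%, beside 16.3% of all tested sequences), and 0 were lower, beside 9.69% of all. The list median was 0.84, against -0.03 over all. Its summed reads came to 8716 in PHBA 2 and 4522 in PHBA 0.

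ptc-miR1444a_R+1 had 5167 normalized reads in PHBA 2, against 1905 in PHBA 0, 2.71-fold higher (2.59 to 2.84). Each of the 4 sequences of its family was higher in PHBA 2, and both strands of the hairpins took part. ptc-MIR1444a-p5, the opposite strand, stood at 64.7 in PHBA 2 and 32.9 in PHBA 0. The second hairpin gave ptc-MIR1444c-p3_1ss3CT, at 750 in PHBA 2 and 453 in PHBA 0, and ptc-MIR1444c-p5, at 27.2 in PHBA 2 and 12.0 in PHBA 0.

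ptc-miR398b had 183 normalized reads in PHBA 2, against 62.6 in PHBA 0, 2.92-fold higher (2.27 to 3.72). Its relative ptc-miR398a_1ss15AG, which differs from it by G21T, was rarer, at 14.7 in PHBA 2 and 8.97 in PHBA 0, and its ratio of 1.63 had an interval (0.68 to 3.54) that includes 1. ptc-miR408-3p had 2071 in PHBA 2, against 1597 in PHBA 0, 1.30-fold higher (1.22 to 1.38). Its variant mtr-miR408-3p_L-1R+2, which starts 1 base later and so has another seed, had 172 in PHBA 2 against 76.8 in PHBA 0, 2.24-fold higher (1.76 to 2.84). miR397 went the other way, with ptc-miR397a at 162 in PHBA 2 and 299 in PHBA 0, 1.85-fold lower (1.52 to 2.26).

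The doubted RNA fragments differed in the direction of the copper-responsive list. Of their 25 tested sequences 20 exceeded 2-fold upwards and 1 downwards, together 84%, beside 26.0% of all tested sequences. Some of these calls rest on few reads, with intervals that include 1. Such are gma-miR6300_R+1_1, at 11.0 in PHBA 2 and 4.74 in PHBA 0, and the 1 downwards, gma-miR6300_L+1, at 0 in PHBA 2 and 1.25 in PHBA 0. Both passed the minimum through PHBA 4, at 41.25 and 30.75. The median of these 25 was 1.33. The list names miR894 and miR5139 too, of which no sequence was seen here. Their summed reads came to 14605 in PHBA 2 and 4837 in PHBA 0, or 2.08% of PHBA 2 and 0.676% of PHBA 0, and 1 of the 25 was at 0 in PHBA 2. Their part in the results on other lists was not tested.

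**Figure D2:**
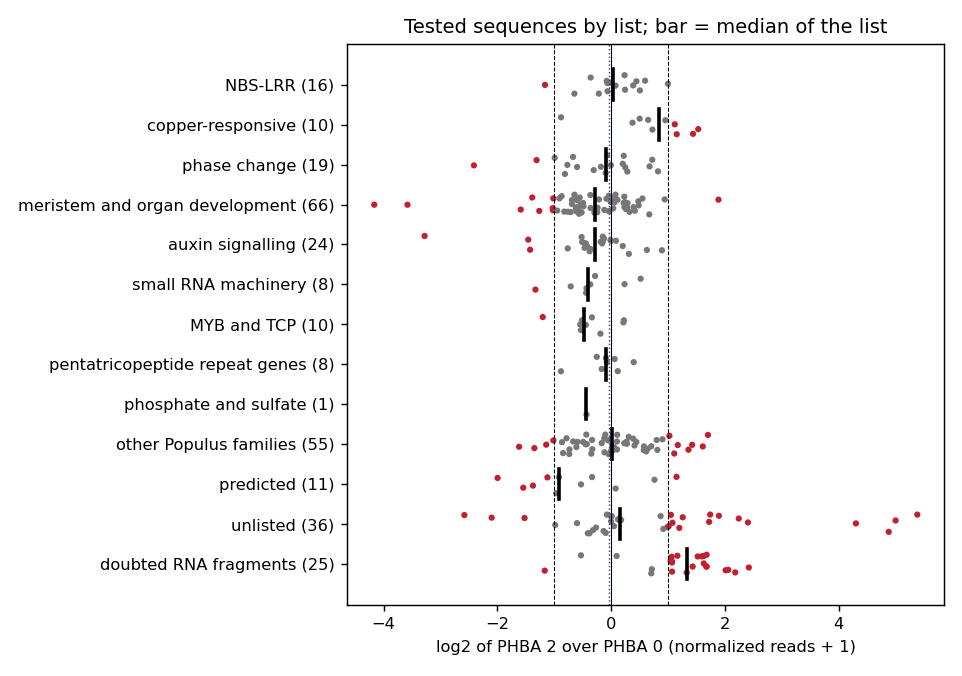
Log2 of PHBA 2 over PHBA 0, in normalized reads plus 1, of each tested sequence by list, with the number tested in brackets; red points are at least 2-fold different, black bars are list medians, the dotted line is the median over all 289 and dashed lines mark 2-fold. The copper-responsive median is 0.84 and that of the doubted RNA fragments 1.33, while the medians of the development, auxin, small RNA machinery and MYB and TCP lists lie below 0.

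In the phase change list the most abundant miRNA was higher, while its rarer relatives lay on both sides. miR156 holds back SPL transcription factors and keeps plants in the juvenile phase, and miR172 acts on AP2-like factors of the adult phase. ptc-miR156g had 21780 normalized reads in PHBA 2, against 13194 in PHBA 0, 1.65-fold higher (1.62 to 1.68). ptc-miR156a, whose seed is shifted by 1 base in the letters printed above, had 398 in PHBA 2, against 700 in PHBA 0, 1.76-fold lower (1.55 to 1.99). So the family sum, 28086 in PHBA 2 and 19611 in PHBA 0, follows ptc-miR156g: without it the log2 ratio of the sum was -0.03 in place of 0.52.

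The opposite strands of miR156 hairpins parted as well. mtr-miR156h-3p_2ss6TC9TG stood at 2312 in PHBA 2 and 1305 in PHBA 0, 1.77-fold higher (1.67 to 1.88). ptc-MIR156a-p3 stood at 559 in PHBA 2 and 889 in PHBA 0, 1.59-fold lower (1.43 to 1.77). Further below its PHBA 0 level was mtr-miR156b-3p_L-1_2ss4TC8TC, at 38.8 in PHBA 2 and 211 in PHBA 0, 5.44-fold lower (3.75 to 8.16). It and mtr-miR156b-3p_L-1, at 38.8 in PHBA 2 and 97.7 in PHBA 0, were the 2 of 19 tested members counted as at least 2-fold lower, and 0 were higher. The share lower was 10.5%, close to the 9.69% of all tested sequences, of which 16.3% were higher. The median of the list was -0.10. The miR172 family summed to 963 in PHBA 2 and 931 in PHBA 0. Of its 5 tested sequences 0 differed by 2-fold, beside 26.0% of all tested sequences.

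In PHBA 2 each of the 5 families that govern meristems and organ development had a smaller sum, by less than 2-fold, though that of miR169 was nearly equal and larger with equal library totals. The list covers regulators of root and shoot growth: miR396 acts on growth-regulating factors, miR164 on NAC factors, miR166 on HD-ZIP III factors, miR171 on GRAS factors of the SCARECROW-like group and miR169 on NF-YA subunits. Of its 66 tested members 8 were at least 2-fold lower, beside 9.69% of all tested sequences, and 1 was higher. The median was -0.29. Summed reads came to 70282 in PHBA 2 and 92481 in PHBA 0.

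ptc-miR396a had 10190 normalized reads in PHBA 2, against 20612 in PHBA 0, 2.02-fold lower (1.97 to 2.07). ptc-miR396c, which differs from it by G21T and shares its seed, had 701 in PHBA 2, against 983 in PHBA 0, 1.40-fold lower (1.28 to 1.55). Some rarer sequences were lower as well. ptc-miR396g-5p stood at 75.6 in PHBA 2 and 115 in PHBA 0, 1.52-fold lower (1.15 to 2.08). gma-miR396a-5p_R+1 stood at 47.8 in PHBA 2 and 77.8 in PHBA 0, 1.63-fold lower (1.13 to 2.39). ath-miR396b-5p_R+1, which is ptc-miR396c with 1 base more, lay on the other side, at 45.9 in PHBA 2 and 38.9 in PHBA 0. The interval of its ratio (0.78 to 1.80) includes 1. On the opposite strand ptc-miR396e-3p stood at 734 in PHBA 2 and 626 in PHBA 0, 1.17-fold higher (1.06 to 1.30). Without ptc-miR396a the log2 ratio of the family sum was -0.15, against -0.83 with it.

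ptc-miR164a had 1501 normalized reads in PHBA 2, against 2822 in PHBA 0, 1.88-fold lower (1.76 to 2.00). The rare ptc-miR164f, which departs from it by G17A and A21T, stood at 28.4 in PHBA 2 and 28.6 in PHBA 0. In the miR171 family the sequences past 2-fold were a pair from 5p strands. ptc-miR171l-5p_1ss1TC had 419 in PHBA 2, against 1263 in PHBA 0, 3.01-fold lower (2.68 to 3.39), and ptc-MIR171j-p5 had 305 in PHBA 2 against 800 in PHBA 0, 2.62-fold lower (2.29 to 3.02). On the 3p side ptc-miR171j_R+1 was lower too, at 268 in PHBA 2 and 393 in PHBA 0, 1.47-fold lower (1.26 to 1.72), while the rare ptc-miR171h-5p stood at 24.6 in PHBA 2 and 19.4 in PHBA 0. The most abundant miR171 sequence, ptc-miR171e, stood at 2017 in PHBA 2 and 2052 in PHBA 0. The smaller family sum, 3353 in PHBA 2 and 5049 in PHBA 0, thus rests mostly on the 5p pair and not on ptc-miR171e.

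The miR166 sequences differed in both directions, among sequences with other starts and among those with the same start. ptc-miR166a had 18191 normalized reads in PHBA 2, against 26894 in PHBA 0, 1.48-fold lower (1.45 to 1.51). ptc-miR166n_L+2R-2, which starts 2 bases earlier and ends 2 bases earlier, had 11800 in PHBA 2, against 9847 in PHBA 0, 1.20-fold higher (1.17 to 1.23). mtr-miR166a_L+1, which starts 1 base earlier, had 237 in PHBA 2, against 570 in PHBA 0, 2.41-fold lower (2.06 to 2.83). These 3 sequences overlap in nearly all letters but have 3 different seeds, as the capitals above show. mtr-miR166a_R-2_1ss19CT, which has the start and seed of ptc-miR166a, went against it, at 283 in PHBA 2 and 202 in PHBA 0, 1.40-fold higher (1.18 to 1.65). The family sum of 32167 in PHBA 2 and 39937 in PHBA 0 mixes them, and without ptc-miR166a its log2 ratio was 0.10 in place of -0.31.

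miR169, the family with the most tested sequences of the list, summed to 18425 in PHBA 2 and 18687 in PHBA 0, a near balance whose sign changes with equal library totals (log2 ratio 0.006 in place of -0.02). Its members ranged widely around that balance. ptc-MIR169ae-p3 stood at 1338 in PHBA 2 and 696 in PHBA 0, 1.92-fold higher (1.77 to 2.09). ptc-miR169n-3p stood at 4894 in PHBA 2 and 5980 in PHBA 0, 1.22-fold lower (1.18 to 1.27), and ptc-miR169t_L+2R-2 at 5711 in PHBA 2 and 5286 in PHBA 0, 1.08-fold higher (1.04 to 1.12). ptc-MIR169w-p3 and aly-miR169h-3p were listed at 0 in PHBA 2 and at 11.0 and 16.9 in PHBA 0.

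**Figure D3:**
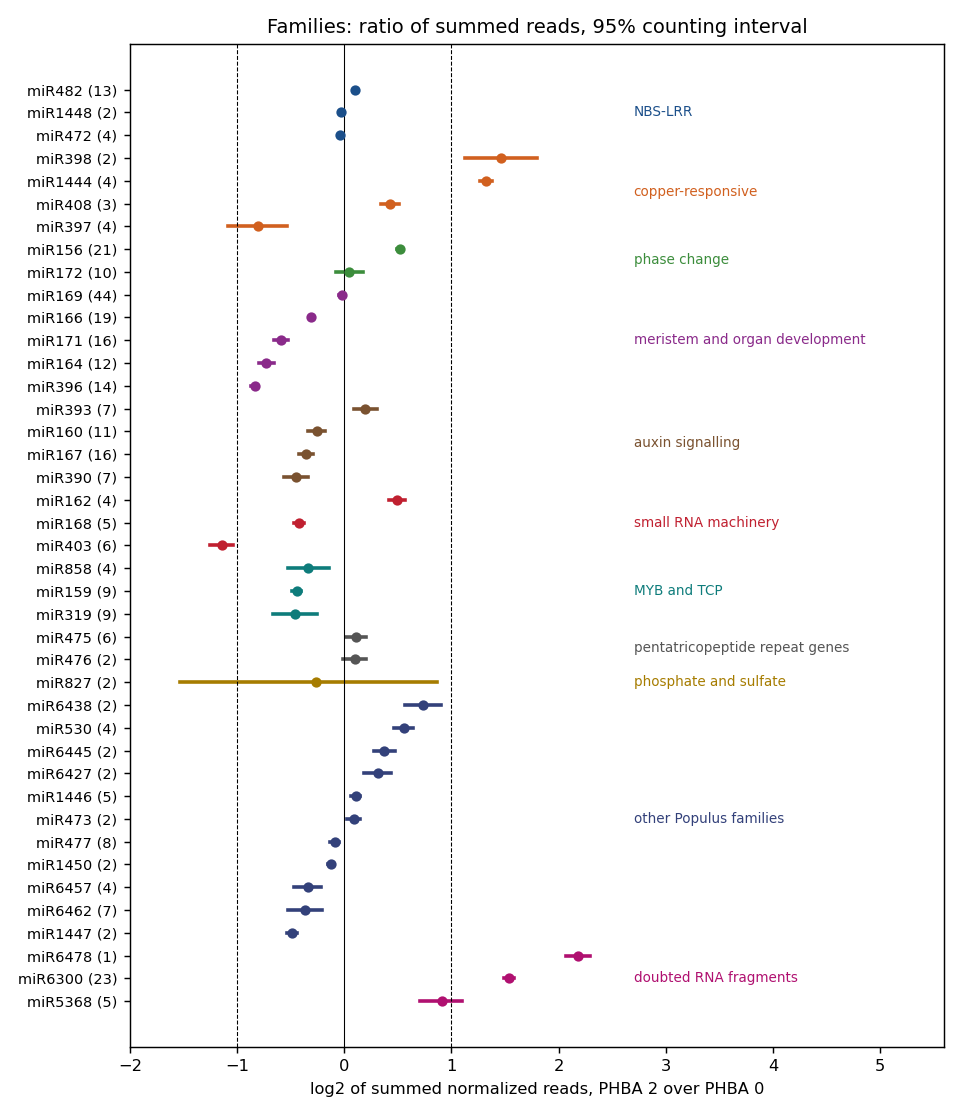
Log2 ratio of summed normalized reads, PHBA 2 over PHBA 0, of each family on the lists (of the other Populus families, those with at least 1000 normalized reads in the 2 libraries together), with the number of listed sequences in brackets and lines for the 95% counting interval. Outside the doubted RNA fragments, miR398 and miR1444 lie beyond 2-fold higher and miR403 beyond 2-fold lower, and the 3 families of the NBS-LRR list lie close to 0. The miR403 sum rests mostly on its most abundant sequence, ptc-miR403c-5p, a 5p strand by name.

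Auxin-related families were lower by up to 1.36-fold in sum, except miR393. miR160 and miR167 act on auxin response factors, miR390 starts the trans-acting siRNAs that act on others of them, and miR393 acts on the TIR1/AFB auxin receptors. ptc-miR160a had 1338 normalized reads in PHBA 2, against 1495 in PHBA 0, 1.12-fold lower (1.04 to 1.20). ptc-miR167e had 1401 in PHBA 2, against 1879 in PHBA 0, 1.34-fold lower (1.25 to 1.44). ptc-miR390a had 953 in PHBA 2, against 1317 in PHBA 0, 1.38-fold lower (1.27 to 1.50).
miR393 stood on the other side, with ptc-miR393a-5p_R+1 at 1005 in PHBA 2 and 809 in PHBA 0, 1.24-fold higher (1.14 to 1.35). The registered ptc-miR393a-5p, 1 base shorter, stood at 295 in PHBA 2 and 278 in PHBA 0. Of the 24 tested members of the list 3 were at least 2-fold lower (12.5%, beside 9.69% of all tested sequences). By the same rule 0 were higher, beside 16.3% of all, and the median was -0.28. The 3 are the rare ptc-miR160g_L+1_1ss16GT, gma-MIR167c-p5 and ptc-MIR393a-p3, each at most 15.3 in PHBA 2 and 36.4 to 43.8 in PHBA 0.

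The families that act on the small RNA machinery differed in both directions. miR162 acts on DCL1, the enzyme that cuts miRNA precursors, miR168 on AGO1, the main Argonaute of the miRNA pathway, and miR403 on AGO2. ptc-miR162a had 2921 normalized reads in PHBA 2, against 2039 in PHBA 0, 1.43-fold higher (1.36 to 1.51). ptc-miR168a-5p had 6020 in PHBA 2, against 8133 in PHBA 0, 1.35-fold lower (1.31 to 1.40). ptc-miR403c-5p had 772 in PHBA 2, against 1944 in PHBA 0, 2.52-fold lower (2.31 to 2.75). It was the 1 of 8 tested members past 2-fold (12.5%, beside 26.0% of all tested sequences). ptc-miR403a, which differs from it at 14 bases, had 261 in PHBA 2, against 355 in PHBA 0, 1.36-fold lower (1.16 to 1.60). The miR403 family sum, 1050 in PHBA 2 and 2315 in PHBA 0, thus rests mostly on ptc-miR403c-5p. Which of these sequences acts on AGO2 was not tested, so the sum need not follow the one that does. The opposite strand of miR168, ptc-miR168a-3p, stood with its partner at 747 in PHBA 2 and 964 in PHBA 0. The list median was -0.40.

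Members of the MYB and TCP list ranged in log2 fold change from -1.20 to 0.22, most of them below 0. miR159 acts on GAMYB-like factors, miR319 on TCP factors and miR858, described in Arabidopsis, on MYB factors of phenylpropanoid metabolism. ptc-miR159a had 4718 normalized reads in PHBA 2, against 6425 in PHBA 0, 1.36-fold lower (1.31 to 1.41). mtr-miR159a_1ss21AT, which differs by A21T, was 1.43-fold lower (1.31 to 1.57), and ptc-miR319a was 1.45-fold lower (1.23 to 1.70). ath-miR858b stood at 349 in PHBA 2 and 442 in PHBA 0, 1.27-fold lower (1.10 to 1.46). Of the 10 tested members 0 were at least 2-fold higher, beside 16.3% of all tested sequences. Lower by this rule was 1 (10%, beside 9.69% of all), ptc-MIR159c-p5 at 112 in PHBA 2 and 260 in PHBA 0. lus-miR159c_R+1, at 423 in PHBA 2 and 362 in PHBA 0, was 1.17-fold higher (1.02 to 1.33), and the list median was -0.47.

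miR475 and miR476 are families of Populus that act on messages for pentatricopeptide repeat proteins of organelles. They had 0 of 8 tested members past 2-fold in either direction, beside 26.0% of all tested sequences, and a median of -0.08. ptc-miR475a-3p had 1047 normalized reads in PHBA 2, against 795 in PHBA 0, 1.32-fold higher (1.21 to 1.43). ptc-miR475d-3p, which differs from it by T7A and C9T, T7A being inside the seed, stood at 86.6 in PHBA 2 and 161 in PHBA 0, 1.85-fold lower (1.42 to 2.45). The phosphate and sulfate list had 1 tested member, ptc-miR827, at 7.76 in PHBA 2 and 11.0 in PHBA 0, with an interval of its ratio from 0.23 to 1.80.

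Among other families first described in Populus, 7 of 55 tested sequences were at least 2-fold higher and 4 lower, with a median of 0.02. Both shares are below those of all tested sequences, 16.3% and 9.69%. Their targets are less well known and are not given here. ptc-miR1450_R-1, the most abundant, had 16242 normalized reads in PHBA 2, against 17654 in PHBA 0, 1.09-fold lower (1.06 to 1.11). ptc-miR1447 had 4985 in PHBA 2, against 6800 in PHBA 0, 1.36-fold lower (1.32 to 1.41), and ptc-miR530a_R+1 had 2091 in PHBA 2 against 1402 in PHBA 0, 1.49-fold higher (1.40 to 1.59). The rare ptc-miR530b_R+1, reached from ptc-miR530a_R+1 by C17T and A21T, stood on the other side, at 10.3 in PHBA 2 and 27.9 in PHBA 0.

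Large differences in both directions also occurred, some inside 1 family. mdm-miR477b_R-2_2ss5TC20GC had 552 normalized reads in PHBA 2, against 169 in PHBA 0, 3.27-fold higher (2.83 to 3.78). ptc-miR477a-5p, the most abundant of that family, had 2680 in PHBA 2, against 3609 in PHBA 0, 1.35-fold lower (1.28 to 1.41). ptc-miR6476a_L+4 had 168 in PHBA 2, against 54.3 in PHBA 0, 3.09-fold higher (2.38 to 4.03), and ptc-MIR6424-p3 had 114 in PHBA 2 against 252 in PHBA 0, 2.22-fold lower (1.76 to 2.81). Both miR6456 sequences were at least 2-fold higher, ptc-miR6456_1ss20CT at 45.3 in PHBA 2 and 20.4 in PHBA 0 among them.

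Predicted sequences, whose names start with PC and which have no registered relative, were lower at the median (-0.92). Of 11 tested 1 was at least 2-fold higher and 4 were lower, together 45.5%, beside 26.0% of all tested sequences. Their sums were small, with 407 normalized reads in PHBA 2, against 647 in PHBA 0, over all 24 listed. PC-3p-19917_356 stood at 81.5 in PHBA 2 and 160 in PHBA 0, 1.96-fold lower (1.50 to 2.62). PC-5p-25263_273 passed the minimum through PHBA 4: it was listed at 0 in PHBA 2, stood at 2.99 in PHBA 0 and reached 636 in PHBA 4. It is among the 4 lower, though it had only 6 reads in PHBA 0 and the interval of its ratio (0 to 2.20) includes 1.

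The strands of a hairpin did not always keep their proportion. Both strands were tested, with a mean of at least 100 for either, in 47 pairs. The log2 fold change of the strand with fewer reads was above that of its partner in 23 pairs and below it in 24, and the counting intervals of the 2 strands lay apart in 19. In 11 of these the rarer strand stood relatively higher and in 8 relatively lower.

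ptc-miR396a and ptc-MIR396a-p3 are such a pair: the first was 2.02-fold lower, while ptc-MIR396a-p3 had 903 normalized reads in PHBA 2, against 890 in PHBA 0. Its share of the reads of both strands was thus 8.14% in PHBA 2 (Wilson 95% interval 7.59 to 8.74) and 4.14% in PHBA 0 (3.96 to 4.33). ptc-MIR164a-p3, opposite the lower ptc-miR164a, stood at 58.2 in PHBA 2 and 39.4 in PHBA 0, a share of 3.73% in PHBA 2 and 1.38% in PHBA 0. ptc-MIR1448-p5_1ss20AG stood at 9615 in PHBA 2 and 7349 in PHBA 0, 1.31-fold higher (1.27 to 1.35), and its share was 7.69% in PHBA 2 and 5.75% in PHBA 0. In each of these 3 pairs the rarer strand took a larger share in PHBA 2. ptc-miR164a fills 5 deposited entries and ptc-miR396a 2, so their shares may mix reads of several hairpins, which was not tested.

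The reverse was seen for miR162a and miR393a. ptc-MIR162a-p5 stood at 35.6 in PHBA 2 and 58.8 in PHBA 0, 1.65-fold lower (1.07 to 2.55), while ptc-miR162a was higher. ptc-MIR393a-p3 was listed at 3.23 in PHBA 2, which is under 3 reads, and at 40.1 in PHBA 0, with a ratio of 0.08 (0.01 to 0.24), while ptc-miR393a-5p_R+1 was higher. In miR171j, as in miR396a, the rarer strand took a larger share in PHBA 2. Its 3p strand held 46.7% in PHBA 2 (42.1 to 51.4) and 32.9% in PHBA 0 (31.1 to 34.9). In miR6457a the share of the 5p strand was likewise larger in PHBA 2, at 57.1%, against 39.7% in PHBA 0. For miR6457a the strand with more reads was thus another in PHBA 2 than in PHBA 0.

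**Figure D4:**
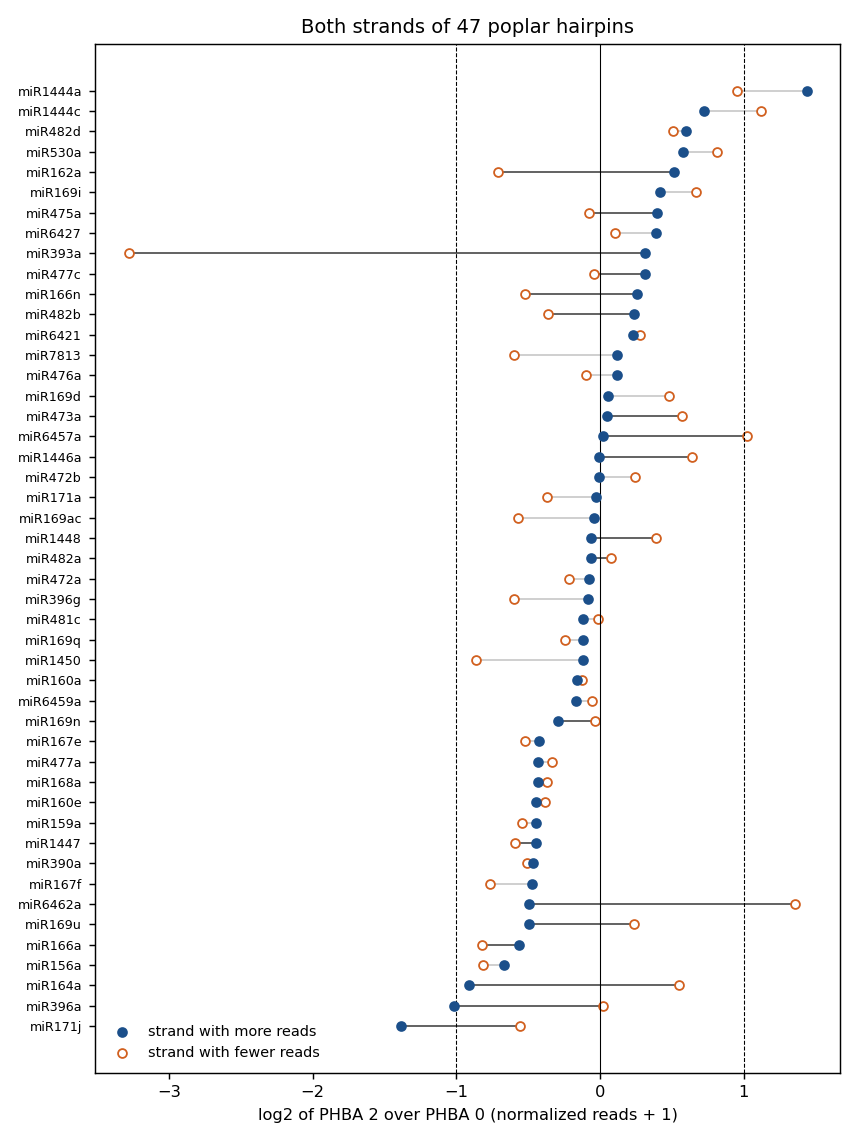
Log2 of PHBA 2 over PHBA 0, in normalized reads plus 1, of both strands of 47 poplar hairpins, ordered by the strand with more reads (filled; open for the strand with fewer); a dark line joins strands whose counting intervals lie apart, a pale line the others, and dashed lines mark 2-fold. Dark lines run in both directions, for instance to the right for miR396a and miR164a and to the left for miR393a and miR162a.

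Sequences that differ only at their ends also parted. Apart from miR6300 there were 32 pairs of tested sequences of 1 family that agree over at least 16 bases and differ in start or end. In 17 of them the start, and so the seed, differed. Counting intervals lay apart in 12 pairs, among them the miR166 and miR408 sequences above. ptc-miR482a.1_L+7R+1, which starts 2 bases before the abundant ptc-miR482a.1_L+5, had 86.6 normalized reads in PHBA 2, against 42.9 in PHBA 0, 2.02-fold higher (1.45 to 2.81). ptc-miR167a_R-2, which has the start of ptc-miR167e and ends 2 bases earlier, stood at 379 in PHBA 2 and 380 in PHBA 0, beside the 1.34-fold lower level of ptc-miR167e. The sources used here do not say how reads were divided among such overlapping sequences.

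Sequences of the doubted fragments were higher in PHBA 2 almost throughout. These are entries named as miRNAs in other surveys but doubted since they match stretches of tRNA or rRNA, and no such match was run here. The 7 abundant miR6300 sequences with a common start run from 18 to 25 nt. gma-miR6300 itself, of 18 nt, had 1762 normalized reads in PHBA 2, against 785 in PHBA 0, 2.24-fold higher (2.09 to 2.41). gma-miR6300_R+4, of 22 nt, had 979 in PHBA 2, against 234 in PHBA 0, 4.18-fold higher (3.72 to 4.70). The other 5 lengths lay between 2.10-fold and 3.22-fold higher, so each of the 7 was higher and the sizes differed beyond counting error.

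gma-MIR6300-p5_1ss17AG had 1082 normalized reads in PHBA 2, against 201 in PHBA 0, 5.38-fold higher (4.76 to 6.06). ptc-miR6478_R+2_1ss21GA had 2284 in PHBA 2, against 502 in PHBA 0, 4.54-fold higher (4.20 to 4.91). miR5368 was higher by less, with a sum of 476 in PHBA 2 and 254 in PHBA 0. Among the doubted fragments 9 sequences, all of miR6300, have exactly the values of another sequence in all 3 libraries. Several of the 20 higher members of the list thus repeat the measurement of another member. The seed of the miR6300 sequences, TCGTTGT, is also that of ath-miR858b, a sequence of another family that was lower.

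**Figure D5:**
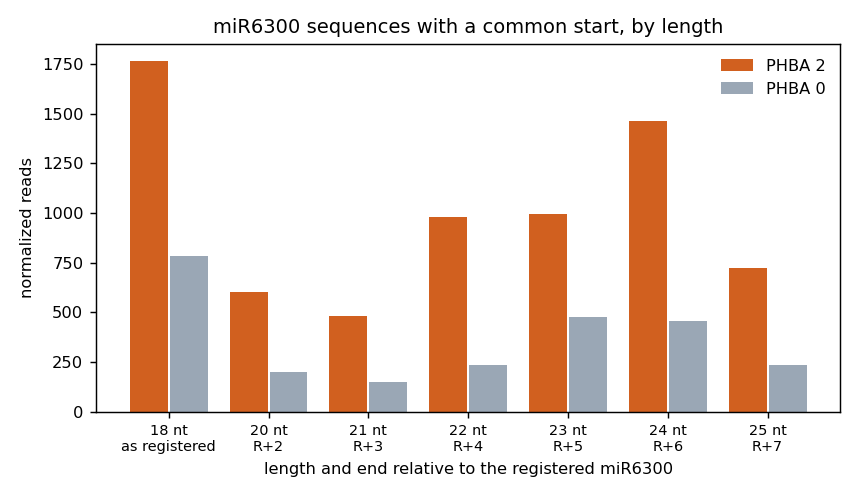
Normalized reads of the 7 miR6300 sequences with a common start and a mean of at least 100, by length, in PHBA 2 (orange) and PHBA 0 (grey); where sequences share all values, 1 is drawn. At each length the PHBA 2 bar is the taller, from 2.10 times the PHBA 0 bar at 23 nt to 4.18 times at 22 nt.

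Among the 36 tested sequences outside all lists, 14 were past 2-fold upwards and 3 downwards, together 47.2%, beside 26.0% of all tested sequences. Among the 3 downwards is the miR7841 sequence, which reached the minimum only with PHBA 0. The median was 0.15. The 14 include gma-MIR5376-p3_2ss16GA19GC, which passed the minimum through PHBA 2 alone, so that its place among them was fixed by the minimum. peu-MIR2916-p5_1ss5AG led them, with 1413 normalized reads in PHBA 2, against 298 in PHBA 0, 4.75-fold higher (4.29 to 5.26). Of the 6 tested miR6173 sequences 5 were at least 2-fold higher, and 3 of those were listed at 0 in PHBA 0. Among those 3, hbr-MIR6173-p5_2ss16CG17AG reached the minimum only with its PHBA 2 value, so its place was fixed likewise. The miR6173 family sum was 154 in PHBA 2 and 12.5 in PHBA 0. The miR3630 family summed to 487 in PHBA 2 and 224 in PHBA 0, 2.17-fold higher (1.88 to 2.49). ath-miR8175_L-2 went the other way, at 296 in PHBA 2 and 386 in PHBA 0, 1.30-fold lower (1.12 to 1.52). Without the families miR2916, miR6173, miR8175, miR5665 and miR3630, taken out after their values were seen, 5 sequences outside the lists were past 2-fold and their median was -0.10. ptc-miR394a-5p, whose family acts on an F-box gene of the meristem, stood at 690 in PHBA 2 and 756 in PHBA 0.

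Sequences were also counted by length and first base, to be read beside the 16.3% higher and 9.69% lower of all tested sequences. Sequences of 18 and 19 nt summed to 4666 normalized reads in PHBA 2 and 2318 in PHBA 0, with 13 of 29 at least 2-fold higher and 5 lower. Those of 23 to 25 nt summed to 14300 in PHBA 2 and 7612 in PHBA 0, but without the doubted fragments to 4561 in PHBA 2 and 4578 in PHBA 0. Sequences of 21 nt, the usual size of plant miRNAs, had 13 of 154 higher and 16 lower, and those of 22 nt 3 of 53 higher and 4 lower. By first base, 18 of 67 sequences that start with G were higher and 9 lower, and without the doubted fragments 3 of 51 were higher and 9 lower. Those with T, the base usual for miRNAs loaded into AGO1, had 13 of 133 higher and 9 lower, and held 90.5% of reads in PHBA 2 and 91.4% in PHBA 0.

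Counts by the kind of name are to be read beside the 16.3% higher and 9.69% lower of all tested sequences. Of 64 sequences named as exact Populus trichocarpa miRNAs 4 lay at least 2-fold lower and 1 higher, and their median was -0.22. Sequences matched to other species, the doubted fragments left aside, had 17 higher and 7 lower of 67, with a median of 0.00. Unregistered strands of Populus trichocarpa hairpins had 4 higher and 8 lower of 84.

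Beside the higher dose, which shares the PHBA 0 library, members took several courses, given here in the order PHBA 0, PHBA 2 and PHBA 4. ptc-miR398b stood at 62.6, 183 and 643 normalized reads and ptc-miR156g at 13194, 21780 and 29959, each highest at 4 mML-1. ptc-miR1444a_R+1 stood at 1905, 5167 and 2649 and gma-miR6300_R+4 at 234, 979 and 290, each highest at 2 mML-1. ptc-miR396a stood at 20612, 10190 and 8291 and ptc-miR164a at 2822, 1501 and 1349, with most of the difference already at 2 mML-1. ptc-miR168a-5p stood at 8133, 6020 and 1818 and ptc-miR1448_L+1R+1 at 120549, 115371 and 56280, with most of it between 2 and 4 mML-1. ptc-miR171l-5p_1ss1TC stood at 1263, 419 and 627, lowest at 2 mML-1. These values come from 1 library a dose and were not tested.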

How the data were processed

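Small RNA libraries were made from pooled total RNA by a standard Illumina protocol, per the labels, and bcl2fastq 1.8.4 is named in the submitters' processing notes. The sources used here give no aligner, counter, miRNA database or genome build. The authors deposited 1 table of 673 entries (472 distinct sequences of 18 to 25 nt) with an expected count per library, and 65.5% of the values in PHBA 2 and 60.2% in PHBA 0 were within 0.0001 of a whole number. The deposited table also holds a normalized signal, obtained from it by a constant factor of 1.29 in PHBA 2 and 0.498 in PHBA 0, whose choice is not explained. Depth is known as reads on listed sequences only.

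Each sequence was counted once. With 1 library a dose no model was fitted. A sequence was tested when its normalized reads averaged at least 10 over 3 libraries, and counted as different from a log2 fold change of 1 in size, with a pseudocount of 1, which understates differences of low values. Folds in the text carry no pseudocount. Their 95% intervals come from an exact binomial (Clopper-Pearson) calculation, conditional on the total, on rounded expected counts, shares have Wilson intervals, and both cover counting error only, since reads carried no molecular identifiers and may be copies. No fold is given against a value listed at 0, which may stand for one under a minimum. A family holds all listed sequences with the same miRNA number, whatever letter or strand. Members and lists were chosen with earlier results of these data known. Named are the 5 most abundant sequences, the 12 largest ratios each way with a mean of at least 100 and an interval without 1, the top sequence of each listed family, hairpin strand pairs, and sequences next to the minimum or at 0. Further members named to show how a family varies were chosen after their values were seen. Near-identical members of a family may share reads and are uncertain. Python 3.11.15, pandas 2.3.3, numpy 2.4.6, scipy 1.17.1, statsmodels 0.14.6 and matplotlib 3.10.9 were used, and the scripts were tested on simulated data. Alternatives covered the scaling, the minimum, repeated entries, the pseudocount and leaving out families.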

Additional observations from a re-analysis of the deposited data

How the results depend on the processing

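With 1 library a dose, no replicate could be left out and no paired analysis was possible. The main count of sequences past 2-fold was 75 (47 higher and 28 lower). The count was 191 (81 higher and 110 lower) with no minimum on the mean, 31 (22 and 9) at a minimum mean of 100, and 41 (18 and 23) without the doubted RNA fragments and sequences under 20 nt. It was 42 (15 and 27) without the doubted fragments, miR2916, miR6173, miR8175, miR5665 and miR3630, an alternative chosen after seeing the data, as was leaving out the fragments by length. With a pseudocount of 10 it was 50 (32 and 18). Equal library totals (74), median-of-ratios factors (76), a minimum over PHBA 2 and PHBA 0 alone (68), every entry counted (97), shared values counted once (70) and the ratio with an interval that does not include 1 (61) stayed within 1.5 times. These scalings moved log2 values by 0.03 and 0.004. Which sequences were called was not compared between settings.

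The log2 ratio of a family sum changed sign without its most abundant sequence for miR1448 (0.388), miR156 (-0.025), miR162 (-0.447), miR166 (0.1), miR393 (-0.105), miR397 (0.375), miR475 (-0.254), miR477 (0.191), miR530 (-0.237), miR6424 (0.375), miR6445 (-0.352) and miR6457 (0.479). Without the 5 families and the fragments, the sequences outside the lists turned to 5 past 2-fold with a median of -0.095, and without the fragments the sum of 23 to 25 nt turned to -0.005. Of all values for lists, 28 counts and 23 medians moved and 110 and 102 did not. For these changes the cause was not tested.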
